A study of Sus scrofa with 18 samples.

Results

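HOX genes encode homeodomain transcription factors that lie in 4 chromosomal clusters, A to D, and carry a paralogue number from 1 to 13 for their place along the cluster. In vertebrate embryos, genes with low numbers are used from the hindbrain and neck, and genes with high numbers only further back, so the set of HOX genes a tissue expresses reflects its position along the body. Adult human skin fibroblasts keep much of this pattern. Tissue of the face, which forms from head mesenchyme in front of the HOX-expressing region, is largely free of HOX expression. The members described here are all gene symbols that consist of HOX, a cluster letter from A to D and a paralogue number. The count table held 36 of them among 27339 genes, made up of 11 members of cluster A, 8 of cluster B, 9 of cluster C and 8 of cluster D. HOXB4, HOXB9 and HOXD4 were not analysed here.

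The data are RNA-seq read counts per gene from 18 pig libraries in 6 groups of 3. The DIK libraries came from tumours of a double knock-in pig that carries elements of the doxycycline-controlled Tet-on system and of the phiC31 integrase, and the tumour tissue was labelled mouth, scrotum or nose. The WT libraries came from normal tissue of wild-type pigs, with the same 3 labels. DIK founders and age-matched WT pigs both received doxycycline from an age of 7 months, and the tissue was collected 8 months after induction. All 9 DIK libraries are from 1 founder, the founder in which tumours formed. The sources used here do not say how many WT pigs were sampled, so the p-values reflect the spread between libraries, which may be technical only. They also do not say which gene the Tet-on element drives or in which cells it is active.

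Libraries held from 418665 counts (WT nose, replicate 1) to 5041470 counts (WT nose, replicate 3). The DIK libraries held 2024959 to 4146150 counts. HOX reads were rare, with 2118 among 65077120 counts, or 0.00325%. Levels below are CPM, the counts scaled to a common library total after TMM scaling. They are not divided by gene length, so levels are compared between libraries and not between genes. WT scrotum replicate 2 stood apart from the other WT scrotum libraries, with 13362 CPM of summed keratinocyte markers, against 1036 and 52.7 CPM in replicates 1 and 3.

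The summed HOX reads went against the tissue labels. The mouth-labelled libraries held most HOX reads, with 338 counts (15.96% of all HOX counts) in the DIK mouth group and 1481 counts (69.9%) in the WT mouth group. The scrotum-labelled libraries held 36 counts in the DIK group and 109 counts in the WT group. The nose-labelled libraries held 89 counts in the DIK group and 65 counts in the WT group. Paralogue 13 did not follow this order. HOXD13 had 0 counts in all 18 libraries and HOXA13 had 3 counts in the DIK mouth and 3 in the WT mouth group and 0 elsewhere, too few to separate the labels. HOXC13 had 0 counts in the WT mouth and 20 in the WT scrotum group, 18 of them in replicate 2. Lists of label markers were read in the same libraries. The 8 measured scrotum and testis markers summed to 49914 ± 12884 CPM in WT mouth, 3345 ± 3743 CPM in WT scrotum and 3396 ± 850 CPM in WT nose libraries. In DIK mouth, DIK scrotum and DIK nose libraries these markers summed to 243 ± 94.1, 219 ± 126 and 203 ± 121 CPM (SD, n = 3 each). Nearly all of the WT mouth sum was ACTG2, which is also a smooth muscle marker and reached 49888 CPM in its highest group. The next highest of these markers, SOX9, reached 114 CPM in its highest group. INSL3 and DDX4 had 0 counts in WT mouth and WT nose libraries, and only INSL3 had 0 counts in WT scrotum libraries. The sum thus does not stand for the whole list. Of 6 listed oral mucosa markers, 3 were measured (KRT4, CRNN and MAL). The oral mucosa markers summed to 5.98 ± 1.43 CPM in WT mouth libraries, 17.8 ± 6.64 CPM in WT scrotum libraries and 36.8 ± 43.3 CPM in WT nose libraries (SD, n = 3 each). They summed to 264 ± 67.0 CPM in DIK mouth libraries, 10042 ± 6408 CPM in DIK scrotum libraries and 6100 ± 1646 CPM in DIK nose libraries. The nasal gland gene SAL1, a salivary lipocalin, averaged 441 CPM in WT mouth, 96.9 CPM in WT scrotum and 74605 CPM in WT nose libraries. SAL1 is 1 of 8 measured nose markers, and OMP, FOXJ1, BPIFB1 and MUC5AC had 0 counts in the WT nose libraries. FOXJ1 and BPIFA1 had 0 counts in WT mouth, and FOXJ1, BPIFA1 and MUC5AC in WT scrotum libraries. The 8 markers summed to 1202, 60.3 and 98.6 CPM in WT mouth replicates 1, 2 and 3. Groups are called by their labels throughout. Whether libraries labelled mouth and scrotum were exchanged was not tested.

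**Figure D1:**
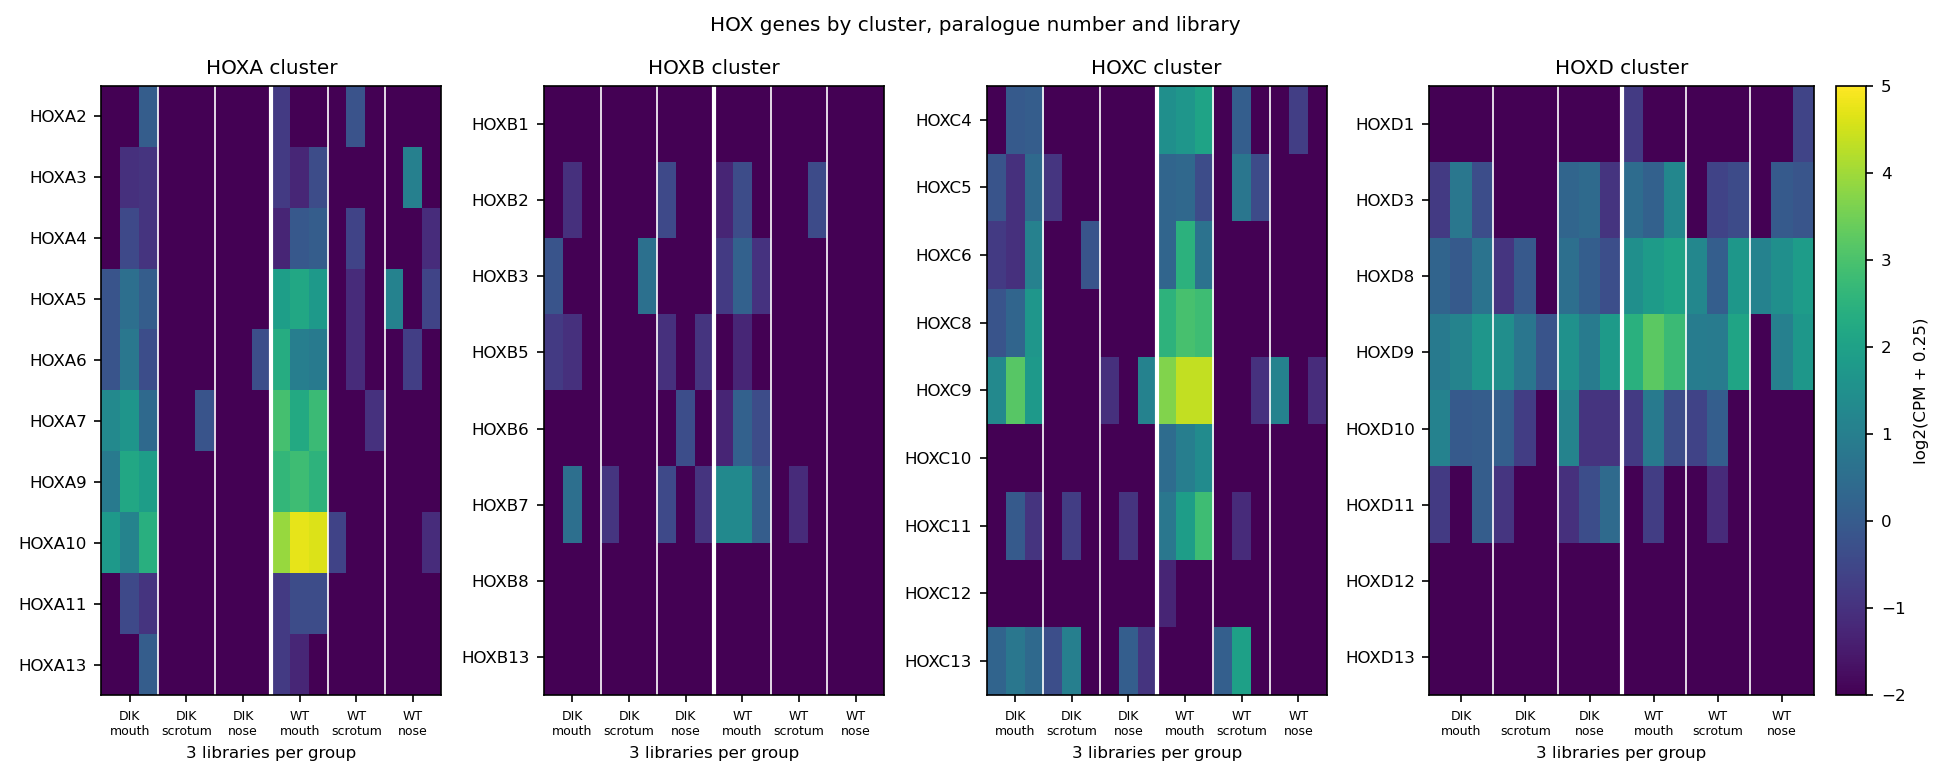
Level of 35 of the HOX members in each of 18 libraries, as log2(CPM + 0.25), with 1 panel per cluster and members in order of paralogue number from top to bottom. The mouth-labelled libraries, DIK at the left of each panel and WT right of the thick line, hold most of the signal in clusters A and C, and HOXD8 and HOXD9 are seen under all 3 labels.

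In normal tissue, the mouth-labelled libraries carried a broad HOX set. In the WT mouth libraries, 22 of 36 members had at least 1 count in every library, against 2 of 36 in WT scrotum and 1 of 36 in WT nose libraries. With a count in any library of the group, the members numbered 30, 19 and 12 in WT mouth, WT scrotum and WT nose. Detection depends on depth, and WT nose replicate 1 held only 418665 counts. The same shares were not taken over all genes, so nothing is read from these numbers of members. HOX counts were 478, 623 and 380 in the WT mouth libraries, against 13, 59 and 37 in the WT scrotum libraries and 3, 22 and 40 in the WT nose libraries. The summed HOX level was 95.1 ± 16.3 CPM in WT mouth, 8.92 ± 3.30 CPM in WT scrotum and 7.45 ± 1.48 CPM in WT nose libraries. No WT mouth library overlapped a WT scrotum or WT nose library. By cluster, the WT mouth libraries held 42.8 ± 3.38 CPM of cluster A, 3.06 ± 1.57 CPM of cluster B, 36.6 ± 9.81 CPM of cluster C and 12.6 ± 2.95 CPM of cluster D.

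By paralogue number, the reads of the WT mouth libraries lay mainly from the middle to the rear of the clusters. Paralogues 1 to 4 had 108 counts, paralogues 5 to 8 had 450 and paralogues 9 to 13 had 923. The paralogue 9 genes (HOXA9, HOXC9 and HOXD9) gave 479 of these counts and the paralogue 10 genes (HOXA10, HOXC10 and HOXD10) gave 376. Paralogue 11 gave 64 counts, paralogue 12 gave 1 and paralogue 13 gave 3. Few reads thus lay behind paralogue 11. The posterior share, which is the part of a library's HOX counts that comes from paralogues 9 to 13, was 54.8%, 65.2% and 67.1% in the WT mouth libraries, with 95% Wilson intervals of 50.3 to 59.2%, 61.3 to 68.8% and 62.2 to 71.6%. These intervals, like all counting limits here, cover counting error only. The posterior share averaged 62.4 ± 6.61% in WT mouth, 53.9 ± 7.80% in WT scrotum and 32.0 ± 8.71% in WT nose libraries (SD, n = 3 each). In the tumours it averaged 56.7 ± 1.13% in DIK mouth, 62.6 ± 36.9% in DIK scrotum and 65.7 ± 10.7% in DIK nose libraries. A high posterior share was thus not particular to the WT mouth libraries, though the scrotum-labelled and nose-labelled shares rest on few counts.

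**Figure D2:**
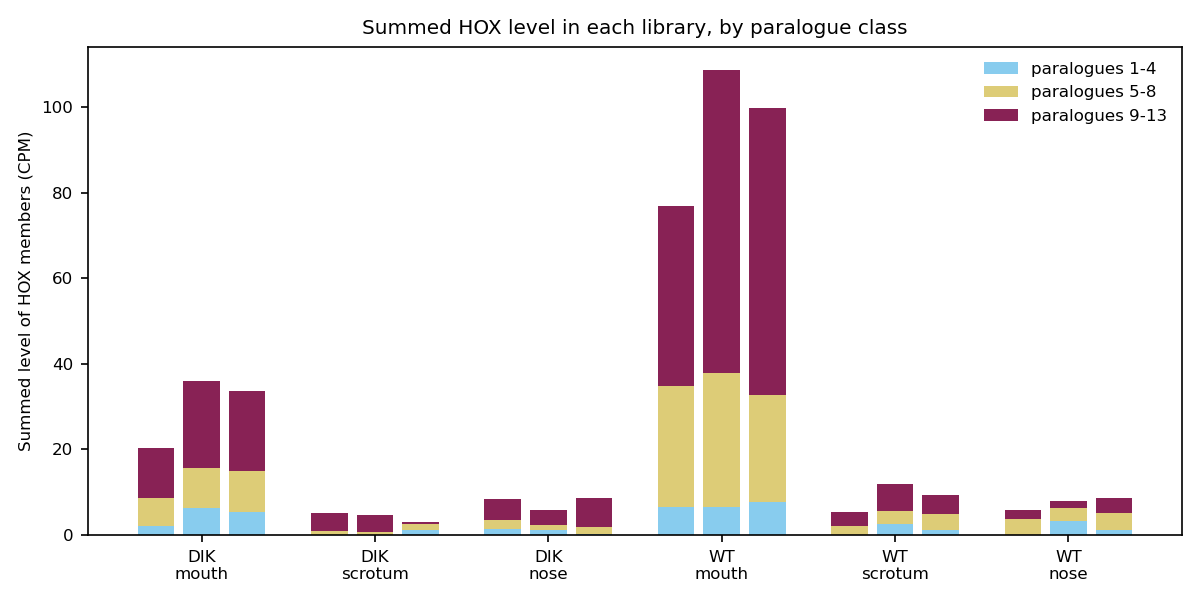
Summed CPM of the 36 HOX members in each library (1 bar per library, 3 per group), stacked by paralogue class. The 3 WT mouth libraries reach 76.9 to 109 CPM, the 3 DIK mouth libraries 20.2 to 36.0 CPM, and the 12 scrotum-labelled and nose-labelled libraries stay between 3.13 and 12.02 CPM.

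Of the 36 members, 9 had enough reads to be tested (HOXA5, HOXA7, HOXA9, HOXA10, HOXC4, HOXC8, HOXC9, HOXD8 and HOXD9). The remaining 27 did not pass the filter on low counts, 5 of them with 0 counts in all 18 libraries and 22 with 554 counts together. Of the 9, only HOXD9 would pass if the mouth-labelled libraries were left out, so the other 8 had to stand high there. Their number among called genes is given as a description, with nothing read from it. A gene was called at an edgeR quasi-likelihood adjusted p under 0.05. In WT mouth libraries, 8 of 9 were called higher than in WT scrotum libraries (9.29% of all tested genes were called higher, 23.0% in either direction) and the same 8 higher than in WT nose libraries (9.92% higher, 19.8% in either direction). HOXD8 was called in neither.

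In cluster A, HOXA10 marks the lumbar region in mouse embryos and is also used in the reproductive tract. HOXA10 had 92, 152 and 93 counts in WT mouth libraries, against 1, 0 and 0 in WT scrotum libraries and 0, 0 and 1 in WT nose libraries. The groups did not overlap. The WT mouth level was 241 times the WT scrotum level (95% exact counting interval 43.0 to 9551; edgeR adjusted p = 3.0e-06) and 170 times the WT nose level (30.3 to 6724; edgeR adjusted p = 1.2e-05). HOXA9, a regulator of blood stem cells and of trunk position, had 37, 39 and 21 counts in WT mouth libraries and 0 counts in all WT scrotum and WT nose libraries. HOXA7, of the thoracic region, had 46, 26 and 25 counts in WT mouth libraries, against 0, 0 and 1 in WT scrotum libraries and 0 in each WT nose library. Both genes thus had reads in every WT mouth library and at most 1 read in any other WT library. The HOXA9 level was at least 23.1-fold higher in WT mouth than in WT scrotum libraries and at least 16.3-fold higher than in WT nose libraries, against a floor of 3 counts over the group. HOXA5, which patterns the lung and the neck-thorax border in mice, had 22, 25 and 12 counts in WT mouth libraries, against 0, 1 and 0 in WT scrotum and 1, 0 and 2 in WT nose libraries. The HOXA5 call against WT nose libraries was lost without WT mouth replicate 2 or WT nose replicate 2 or 3 (edgeR adjusted p = 0.0609 to 0.108).

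In cluster C, HOXC9 and HOXC8 are used in the trunk, and both help to specify motor neuron types in mice. HOXC9 had 78, 117 and 77 counts in WT mouth libraries, against 0, 0 and 1 in WT scrotum libraries and 1, 0 and 1 in WT nose libraries. Its level in WT mouth libraries was 195 times that in WT scrotum libraries (95% exact counting interval 34.6 to 7714) and 68.5 times that in WT nose libraries (18.8 to 568). HOXC8 had 34, 43 and 26 counts in WT mouth libraries and 0 in all WT scrotum and WT nose libraries. HOXC4, a neck-region gene, had 16, 17 and 15 counts in WT mouth libraries, against 0, 4 and 0 in WT scrotum and 0, 1 and 0 in WT nose libraries. All 3 genes were higher without overlap in the WT mouth libraries. Of all tested genes, 15.2% were higher without overlap in WT mouth than in WT scrotum libraries and 21.2% than in WT nose libraries. The HOXC4 difference from WT scrotum (log2 difference 3.08 ± 0.91 SE, edgeR adjusted p = 0.0239) lost the call without WT mouth replicate 2 or 3 or WT scrotum replicate 1 or 3 (edgeR adjusted p = 0.0579 to 0.0761). The HOXC4 difference from WT nose lost it without WT mouth replicate 2 or 3 or any WT nose library (edgeR adjusted p = 0.0517 to 0.166).

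Cluster D differed from clusters A and C in that HOXD8 and HOXD9 had reads under every label. HOXD9 had 32, 53 and 25 counts in WT mouth libraries, 4, 8 and 16 in WT scrotum libraries and 0, 5 and 14 in WT nose libraries. These correspond to 6.98 ± 2.08, 2.44 ± 1.36 and 1.61 ± 1.51 CPM in WT mouth, WT scrotum and WT nose libraries (SD, n = 3 each). HOXD9 was higher in WT mouth than in WT scrotum libraries (log2 difference 1.48 ± 0.49 SE, edgeR adjusted p = 0.0342) and than in WT nose libraries (1.66 ± 0.53 SE, edgeR adjusted p = 0.0339). Both calls were lost without WT mouth replicate 2 or 3, that against WT scrotum also without WT scrotum replicate 1 or 2, and that against WT nose also without WT nose replicate 1 or 2 (edgeR adjusted p = 0.0599 to 0.149). HOXD8 had 16, 19 and 15 counts in WT mouth, 5, 4 and 12 in WT scrotum and 1, 7 and 16 in WT nose libraries, and the call was not made for it in either comparison (log2 differences 0.74 ± 0.51 SE, edgeR adjusted p = 0.335, and 0.17 ± 0.53 SE, edgeR adjusted p = 0.928). HOXD8 and HOXD9 made up 43 of 65 HOX counts in WT nose libraries. Without them, the WT nose libraries held 3.21 ± 0.93 CPM of HOX reads, WT scrotum libraries 4.50 ± 4.40 CPM and WT mouth libraries 84.8 ± 13.9 CPM. HOXD12 and HOXD13 had 0 counts in all 18 libraries. Between WT scrotum and WT nose libraries, 0 of 9 tested members were called by edgeR, DESeq2 or limma-voom, and 0 had an unadjusted p under 0.05 by any of them (6.05% of all tested genes were called by edgeR).

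Among the members with too few reads for the test, HOXC10 and HOXC11, which are used in the lumbar region and hindlimb, had 7, 10 and 9 counts and 9, 20 and 26 counts in WT mouth libraries. HOXC10 had 0 counts in all WT scrotum and WT nose libraries, and HOXC11 had 1 count over the WT scrotum and 0 over the WT nose libraries. HOXA6 had 30, 10 and 6 counts, HOXC6 had 6, 31 and 5 and HOXB7 had 14, 13 and 3 counts in WT mouth libraries, and each had at most 1 count in any WT scrotum or WT nose library. When the filter on low counts was left out, these 5 members were called higher in WT mouth libraries against both of the other WT labels. In that fit, 2395 of 23208 genes were called in either direction against WT nose and 2735 of 23208 against WT scrotum libraries. The 5 members were picked by their WT mouth counts, so nothing is read from their number. Of cluster B, HOXB1, HOXB8 and HOXB13 had 0 counts in all 18 libraries and the WT nose libraries had 0 counts of any of its 8 members. With 0 counts, up to 0.378 CPM per member is allowed over the WT nose group.

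Among the tumours too, the mouth-labelled libraries held the most HOX reads in sum, at a lower level than in normal tissue. The excess over DIK nose libraries lay mainly in clusters A and C. Over the DIK mouth, DIK scrotum and DIK nose libraries, cluster A had 157, 1 and 2 counts and cluster C 111, 10 and 13. Cluster D had 60, 22 and 65 counts and cluster B 10, 3 and 9, so neither set DIK mouth apart from DIK nose libraries. HOX counts were 64, 148 and 126 in the DIK mouth libraries, against 18, 13 and 5 in the DIK scrotum libraries and 35, 22 and 32 in the DIK nose libraries. The summed level was 29.9 ± 8.47 CPM in DIK mouth, 4.27 ± 1.01 CPM in DIK scrotum and 7.72 ± 1.56 CPM in DIK nose libraries, with no overlap between DIK mouth libraries and the rest. HOXA10 had 10, 8 and 19 counts in DIK mouth libraries and 0 in all DIK scrotum and DIK nose libraries. Its level was at least 8.92-fold higher in DIK mouth than in DIK scrotum libraries (edgeR adjusted p = 0.00551) and at least 12.9-fold higher than in DIK nose libraries (edgeR adjusted p = 0.00558). HOXA9 had 5, 18 and 13 counts in DIK mouth libraries and 0 in the other DIK libraries, and HOXA7 had 7, 12 and 4 counts against 1 count over the DIK scrotum and 0 over the DIK nose libraries. Each DIK mouth library thus had reads of all 3 genes.

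Against DIK nose libraries, edgeR called HOXA7, HOXA9 and HOXA10 higher in DIK mouth libraries, where 0.380% of all tested genes were called higher and 1.54% in either direction. Against DIK scrotum libraries it called HOXA9, HOXA10 and HOXC9 higher, where 1.05% of all tested genes were called higher and 2.88% in either direction. HOXC9 had 7, 36 and 12 counts in DIK mouth libraries, 0 in each DIK scrotum library and 1, 0 and 7 in DIK nose libraries, and the DIK nose difference was not called (log2 difference 2.72 ± 0.80 SE, edgeR adjusted p = 0.122). HOXC8 had 2, 4 and 11 counts in DIK mouth and 0 in the other DIK libraries, with edgeR adjusted p = 0.0845 against DIK scrotum and 0.0780 against DIK nose libraries. When the 2 DIK groups compared were fitted alone, 0 members passed the filter on low counts, so these calls rest on members that passed through the WT mouth libraries. The HOXA10 call was kept when any single library was left out, while those of HOXA7, HOXA9 and HOXC9 were lost without some of them. Without DIK mouth replicate 2, edgeR adjusted p was 0.0620 for HOXA9 and 0.0677 for HOXC9 against DIK scrotum libraries, and 0.0638 for HOXA9 and 0.107 for HOXA7 against DIK nose libraries. Between DIK scrotum and DIK nose libraries edgeR, DESeq2 and limma-voom called 0 of 9 members (5.84% of all tested genes by edgeR), with 1 member at an unadjusted p under 0.05 by edgeR and by DESeq2 and 0 by limma-voom.

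Within the mouth label, the tumours had fewer HOX reads than normal tissue. All 9 tested members were lower in the 3 DIK mouth libraries than in the 3 WT mouth libraries without overlap, and edgeR called 8 of them lower. The background is high, since 24.3% of all tested genes were called lower, 46.9% in either direction, and 29.7% were lower without overlap. Because 8 of the 9 passed the filter only through the WT mouth libraries, the count is a description and not support for a shared change.

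HOXA10 averaged 3.39 ± 1.57 CPM in DIK mouth and 21.9 ± 6.23 CPM in WT mouth libraries (log2 difference -2.68 ± 0.45 SE, edgeR adjusted p = 0.000257). This call held under every alternative run. HOXC9 averaged 4.72 ± 3.52 CPM in DIK mouth and 17.7 ± 4.47 CPM in WT mouth libraries (-1.87 ± 0.60 SE, edgeR adjusted p = 0.0170). HOXC8 averaged 1.51 ± 1.24 CPM in DIK mouth and 6.60 ± 1.03 CPM in WT mouth libraries (-2.08 ± 0.62 SE, edgeR adjusted p = 0.0170). HOXD9 had 5, 8 and 11 counts in DIK mouth libraries, a level of 2.15 ± 0.70 CPM, against 6.98 ± 2.08 CPM in WT mouth libraries (-1.67 ± 0.50 SE, edgeR adjusted p = 0.00985). HOXA7, HOXA5, HOXC4 and HOXD8 were lower by log2 differences of -1.56 to -2.47, with edgeR adjusted p from 0.0197 to 0.0378. HOXA9 averaged 3.14 ± 1.42 CPM in DIK mouth and 6.09 ± 0.65 CPM in WT mouth libraries and was not called (-0.93 ± 0.51 SE, edgeR adjusted p = 0.159). The calls of HOXA5, HOXC4, HOXC8, HOXC9, HOXD8 and HOXD9 were each lost when some single mouth-labelled library was left out. The HOXA7 call was lost whichever mouth-labelled library was left out (edgeR adjusted p = 0.0528 to 0.160), and also with no filter and with a replicate block. The number of called members fell to 2 without WT mouth replicate 2, 3 without DIK mouth replicate 1, 4 without WT mouth replicate 3 and 5 without DIK mouth replicate 2 or 3.

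**Figure D3:**
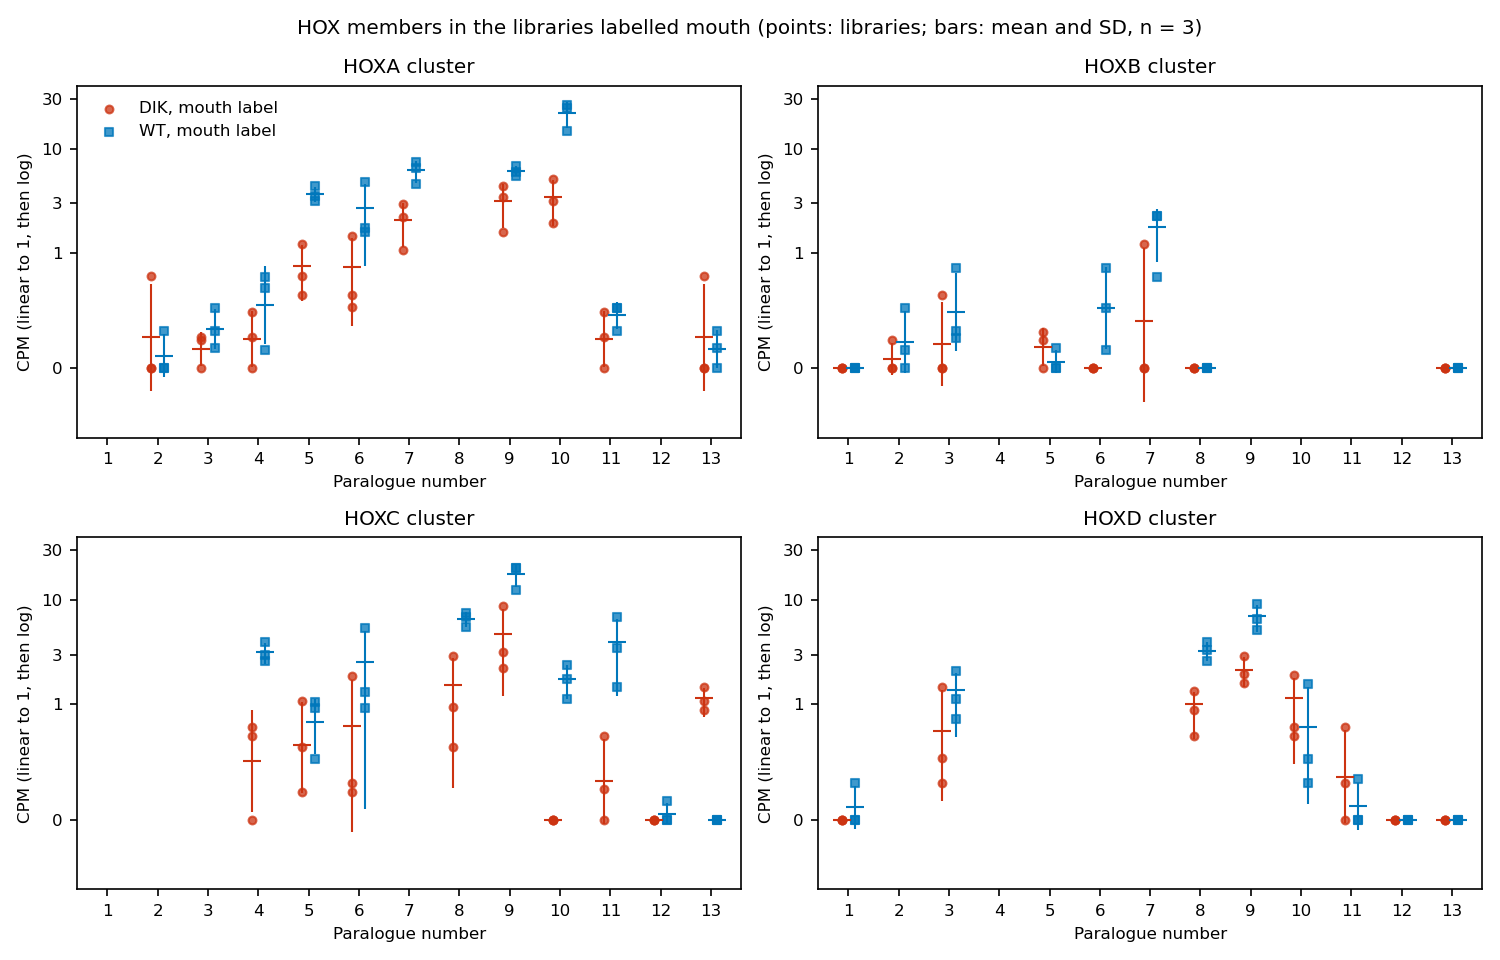
CPM of 35 HOX members by paralogue number in the 3 DIK mouth libraries (circles) and the 3 WT mouth libraries (squares), with 1 panel per cluster and bars for the mean and SD (n = 3). The vertical axis is linear up to 1 CPM and logarithmic above. Most members of paralogues 4 to 11 lie lower in DIK, the largest gap among cluster A members being that of HOXA10, and HOXC13 lies higher in DIK.

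Cluster A gave 46.6 ± 1.20% of a library's HOX counts in DIK mouth and 45.5 ± 4.80% in WT mouth libraries. Cluster C gave 31.1 ± 6.81% in DIK mouth and 38.0 ± 4.73% in WT mouth libraries, cluster D gave 19.2 ± 5.75% and 13.2 ± 0.89% in DIK mouth and WT mouth libraries, and cluster B gave 3.14 ± 2.72% in DIK mouth and 3.23 ± 1.46% in WT mouth libraries.

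HOXC10, HOXC11 and HOXC13 lie at the rear of cluster C. HOXC10 had 0 counts in all DIK mouth libraries and 26 over the WT mouth libraries, a level at least 6.06-fold lower in DIK mouth libraries. HOXC11 had 0, 3 and 1 counts in DIK mouth libraries, against 9, 20 and 26 in WT mouth libraries. HOXC13, a gene of hair follicles, nails and, in mice, the filiform papillae of the tongue, ran the other way. HOXC13 had 3, 6 and 4 counts in DIK mouth libraries and 0 in all WT mouth libraries, a level at least 6.19-fold higher in DIK mouth libraries. Without the filter on low counts, edgeR called HOXC10 lower (adjusted p = 0.00569), HOXC11 lower (adjusted p = 0.00518) and HOXC13 higher (adjusted p = 0.0136). In that fit, 6146 of 23208 genes were called in either direction. These 3 members were chosen after their values were seen, and their calls rest on few counts.

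HOXC13 also appeared where its neighbours did not. It had 2, 5 and 0 counts in DIK scrotum, 0, 3 and 1 in DIK nose, 2, 18 and 0 in WT scrotum and 0 in each WT nose library. Reads of HOXC13 were thus present in 7 of 9 DIK and in 2 of 9 WT libraries. HOXC12 had 1 count in all 18 libraries, and HOXC11 had at most 1 count in any library not labelled mouth. The summed keratinocyte markers were 29199 to 67179 CPM in the DIK libraries and 52.7 to 1320 CPM in the WT libraries other than WT scrotum replicate 2. That library, with 18 HOXC13 counts, had 13362 CPM of them. The part of keratinocyte content in the HOXC13 values was not tested.

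At the other labels, few members had reads to compare. HOXD8 was the only 1 of the 9 tested members that edgeR called between DIK and WT at the scrotum label (24.0% of all tested genes were called lower, 43.5% in either direction) and at the nose label (20.1% lower, 42.1% in either direction). HOXD8 had 1, 2 and 0 counts in DIK scrotum libraries, against 5, 4 and 12 in WT scrotum libraries (log2 difference -2.27 ± 0.75 SE, edgeR adjusted p = 0.0207). It had 5, 3 and 2 counts in DIK nose libraries, against 1, 7 and 16 in WT nose libraries, which are 0.86 ± 0.34 CPM in DIK nose and 2.63 ± 0.75 CPM in WT nose libraries (-1.70 ± 0.61 SE, edgeR adjusted p = 0.0314). HOXD8 was thus lower on average in DIK at each of the 3 labels. The scrotum-label call was lost without DIK scrotum replicate 1 or 3 or WT scrotum replicate 3 (edgeR adjusted p = 0.0578 to 0.120). The nose-label call was lost without DIK nose replicate 2 or 3 or WT nose replicate 2 or 3 (edgeR adjusted p = 0.0611 to 0.178). In WT nose replicate 1, with 1 count of HOXD8, a floor of 3 counts was 5.76 CPM. HOXD8 did not pass the filter when the 2 groups of either label were fitted alone. HOXD9 had 9, 4 and 1 counts in DIK scrotum and 11, 6 and 12 in DIK nose libraries, against the WT scrotum and WT nose counts given above, and was not called at either label (-0.55 ± 0.59 SE, edgeR adjusted p = 0.465, at the scrotum label, and 0.20 ± 0.58 SE, edgeR adjusted p = 0.906, at the nose label). HOXD10 had 8, 1 and 1 counts and HOXD11 had 1, 2 and 4 counts in DIK nose libraries and both had 0 in all WT nose libraries, too few for the test.

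Whether the DIK-WT difference itself varied between labels was tested as an interaction. By edgeR, 0 of 9 members were called for mouth minus nose (8.60% of all tested genes), mouth minus scrotum (13.1%) or scrotum minus nose (7.65%). Unadjusted p was under 0.05 for 2, 0 and 0 members by edgeR in these comparisons, DESeq2 called 0 in each, and limma-voom called 1 lower in mouth minus nose and 0 in the others. For HOXD9, the DIK-WT difference at the mouth label minus that at the nose label was -1.87 ± 0.76 SE (edgeR adjusted p = 0.138), and for HOXD8 it was 0.03 ± 0.73 SE (edgeR adjusted p = 0.9999). For clusters A and C this test carries little, because most of those members had 0 or few reads in the scrotum-labelled and nose-labelled libraries.

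Markers of cell types were compared between the same groups. In bulk tissue, fewer cells of a type and less RNA per cell cannot be told apart. Fibroblast markers (10 of 10 measured, none at 0) summed to 2149 to 2554 CPM in DIK mouth and 15958 to 25577 CPM in WT mouth libraries, and 9 of 10 were called lower in DIK mouth libraries, with a median log2 difference of -3.25. Smooth muscle markers (8 of 8 measured) summed to 256 to 422 CPM in DIK mouth libraries, where MYOCD was at 0, and to 49613 to 90777 CPM in WT mouth libraries, and 8 of 8 were called lower. Keratinocyte markers (7 of 10 measured, none at 0) summed to 49370 to 58511 CPM in DIK mouth and 95.3 to 1320 CPM in WT mouth libraries, and 7 of 7 were called higher. Within normal tissue, smooth muscle markers summed to 2327 to 11978 CPM in WT scrotum and 5045 to 7313 CPM in WT nose libraries, below every WT mouth library. Fibroblast markers did not separate WT mouth from WT scrotum libraries, with 0 of 10 called and 6007 to 32782 CPM in WT scrotum libraries. In WT mouth libraries, 4 of 10 were called higher than in WT nose libraries, where 9.92% of all tested genes were called higher. Skeletal muscle markers (10 of 10 measured) summed to 1230 to 3701 CPM in WT mouth, 117515 to 304696 CPM in WT scrotum and 100089 to 139100 CPM in WT nose libraries. Among the tumours, 4 of 10 skeletal muscle markers, 2 of 3 oral mucosa markers and 1 of 4 tested immune cell markers were called lower in DIK mouth than in DIK nose libraries. Of all tested genes, 1.54% were called in either direction there. Against DIK scrotum libraries, 3 of 10 skeletal muscle, 3 of 3 oral mucosa and 1 of 4 immune cell markers were called lower in DIK mouth libraries. There, 2.88% of all tested genes were called in either direction. No fibroblast, smooth muscle or keratinocyte marker was called in either comparison. Immune cell markers summed to 32.6 to 34.1 CPM in DIK mouth, 65.6 to 177 CPM in DIK scrotum and 42.5 to 44.4 CPM in DIK nose libraries. The part of cell content in the HOX differences was not tested.

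HOX proteins bind DNA together with TALE homeodomain proteins of the PBX, MEIS and PKNOX families. MEIS1 followed the labels of the HOX reads in normal tissue, at 79.5, 132 and 141 CPM in WT mouth libraries, 16.8, 12.6 and 7.27 CPM in WT scrotum libraries and 23.0, 8.03 and 14.1 CPM in WT nose libraries. The WT mouth libraries did not overlap the other WT libraries for MEIS1. Among the tumours, MEIS1 stood at 21.8, 25.1 and 15.5 CPM on average in DIK mouth, DIK scrotum and DIK nose libraries. At the mouth label 3 of 7 tested cofactors were called lower in DIK, with MEIS1 (log2 difference -2.42 ± 0.37 SE) and MEIS3 (-2.99 ± 0.83 SE) among them, and 0 were called higher, where 24.3% of all tested genes were called lower. Between labels, 4 of 7 were called higher and 0 lower in WT mouth than in WT nose libraries, where 9.92% of all tested genes were called higher. Against WT scrotum libraries, 3 of 7 were called higher and 1, PKNOX2, lower in WT mouth libraries, where 9.29% of all tested genes were called higher. In the tumours, 0 of 7 were called between DIK mouth and DIK nose (1.54% of all tested genes) or DIK scrotum libraries (2.88%).

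**Figure D4:**
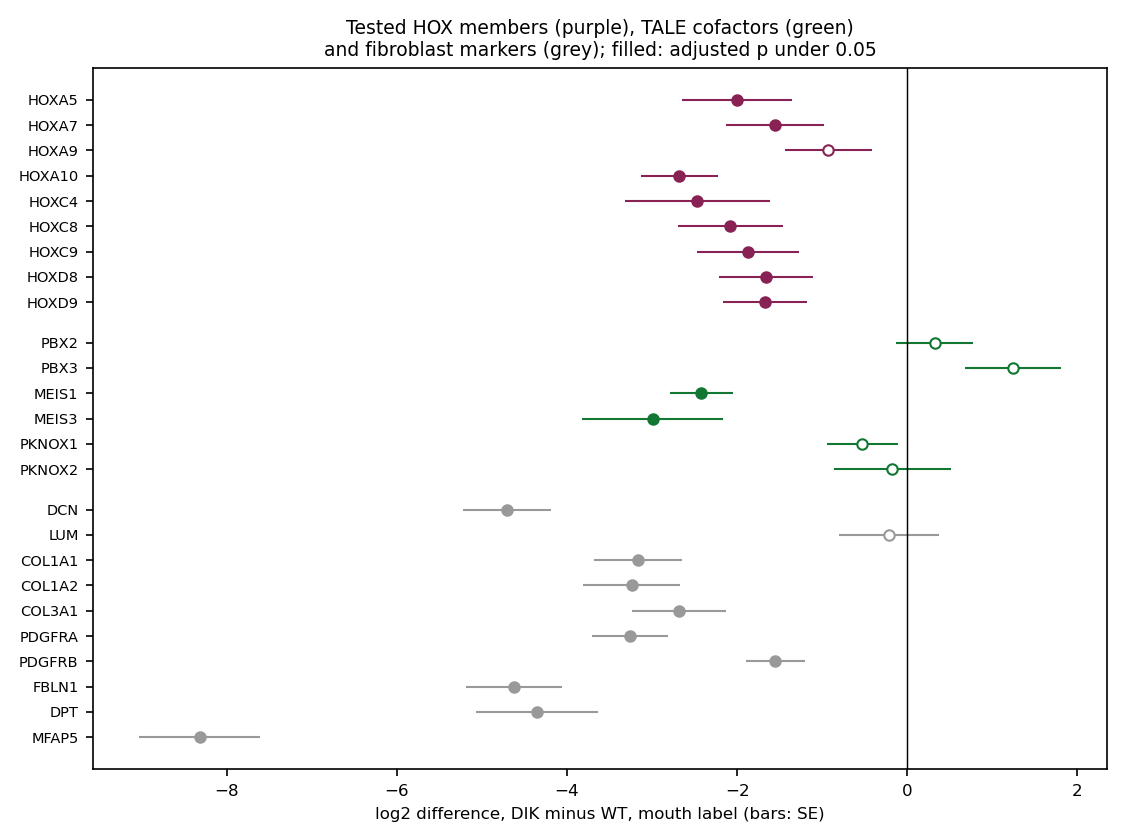
Log2 difference between DIK mouth and WT mouth libraries (edgeR, bars: SE) for the 9 tested HOX members, 6 TALE cofactors and the 10 fibroblast markers, with filled points for an adjusted p under 0.05. All 9 HOX members lie below 0, from -0.93 to -2.68, and the 9 fibroblast markers called lower lie at -1.55 (PDGFRB) or below.

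Regulators of HOX expression include the CDX factors, retinoic acid receptors and enzymes, and the Polycomb and trithorax proteins that hold clusters silent or active. Of 25 measured, CDX1 had 0 counts in every group, and 5 of 19 tested were called higher and 4 lower in DIK mouth than in WT mouth libraries. That is close to the background, since 46.9% of all tested genes were called in that comparison, and nothing is read from the count. Nor was it particular to the mouth label. In DIK, 4 were called higher and 3 lower at the scrotum label, and 5 higher and 2 lower at the nose label. Of all tested genes, 43.5% and 42.1% were called there in either direction. The genes that follow are examples from DIK mouth against WT mouth libraries. EZH2, the Polycomb methyltransferase, was higher (log2 difference 4.28 ± 0.43 SE), and its alternate EZH1 was lower (-1.84 ± 0.45 SE). The trithorax methyltransferase gene KMT2A was lower (-0.94 ± 0.27 SE). RARG, a retinoic acid receptor of epidermis, was higher (3.01 ± 0.44 SE). Between labels, 0 of 19 were called among the tumours with the mouth label on 1 side, 1 (WDR5, lower) between WT mouth and WT nose and 1 (RARG, lower) between WT mouth and WT scrotum libraries. Of all tested genes, 19.8% were called between WT mouth and WT nose and 23.0% between WT mouth and WT scrotum libraries. Of 17 measured genes that flank the clusters, EVX1 and EVX2, the homeobox genes next to clusters A and D, had 0 counts in all 18 libraries. SKAP2, a cytoplasmic adaptor gene beside cluster A, was the only flanking gene of 12 tested that was called between tumour labels in the comparisons with DIK mouth. Of all tested genes, 2.88% were called against DIK scrotum and 1.54% against DIK nose libraries. SKAP2 averaged 17.9 CPM in DIK mouth, 3.77 CPM in DIK scrotum and 3.90 CPM in DIK nose libraries (log2 differences 2.24 ± 0.53 SE, edgeR adjusted p = 0.0239, against DIK scrotum, and 2.20 ± 0.51 SE, edgeR adjusted p = 0.0317, against DIK nose), and 4.59, 2.37 and 4.33 CPM in WT mouth, WT scrotum and WT nose libraries.

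Position factors of the head were compared across the same labels. Of 6 tested head and face factors, 4 were called lower in WT mouth than in WT scrotum libraries, ALX1 and DLX5 among them, and 0 higher, where 23.0% of all tested genes were called in either direction. Against WT nose libraries, 3 of 6 were called lower and 0 higher, where 19.8% of all tested genes were called in either direction. In the tumours, 0 of 6 were called between DIK mouth and DIK scrotum (2.88% of all tested genes) or DIK nose libraries (1.54%). The 16 measured factors summed to 14.3 ± 1.17 CPM in DIK mouth, 17.2 ± 3.63 CPM in DIK scrotum and 35.5 ± 3.83 CPM in DIK nose libraries (SD, n = 3 each), and DIK mouth and DIK scrotum libraries overlapped. In normal tissue the 16 measured factors summed to 8.98 ± 2.06 CPM in WT mouth, 53.8 ± 14.2 CPM in WT scrotum and 47.9 ± 7.36 CPM in WT nose libraries. ALX1, a factor of the frontonasal region, had 0 counts in WT mouth libraries and averaged 5.22 CPM in WT scrotum and 10.9 CPM in WT nose libraries. Of 8 tested limb and trunk factors, 3 were called higher and 3 lower in WT mouth than in WT scrotum libraries, so the list did not move in 1 direction. In that comparison 23.0% of all tested genes were called in either direction. SHOX2 was at 45.0 CPM in WT mouth, 5.89 CPM in WT scrotum and 2.46 CPM in WT nose libraries, and TBX15 at 17.5 CPM in WT mouth, 110 CPM in WT scrotum and 83.7 CPM in WT nose libraries.

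Some HOX gene models overlap their neighbours, and whether reads were shared between them was not measured. In RefSeq gene models of Sscrofa11.1, which were used for names and neighbours only, all 36 members matched, and 17 overlapped another gene model. HOXA3 overlapped HOXA4, HOXA5 and HOXA6, and HOXD9 overlapped HOXD10 and HOXD11. HOXA7, HOXA9, HOXA10, HOXC8 and HOXC9 overlapped unnamed loci. Since no strand setting is given in the sources used here, the values of these members are uncertain to that extent.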

How the data were processed

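Per the labels' protocols, tissue was stored in RNAlater, TRIzol was used for extraction and the VAHTS mRNA-seq V3 kit for the libraries. HISAT2 2.1.0, HTSeq 0.11.2 and fastp are named in the submitters' processing notes. Genome build, annotation, strand setting and treatment of multiply mapped reads are not given in the sources, and no coordinates are printed. The deposited table holds the authors' whole-number count of reads per gene and library, with no normalization. Columns were assigned to samples by name and groups came from the labels.

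After TMM scaling, counts were tested in edgeR 4.0.16 (quasi-likelihood, robust, under R 4.3.3) with 6 group means over all 18 libraries. The filter (minimum count 10, minimum total 15) kept 12895 genes, with 99.1% or more of the counts in each library. The biological coefficient of variation was 36.1% in common. P-values were two-sided and adjusted by the Benjamini-Hochberg method over all tested genes in each contrast, and calls were made under 0.05. SE was derived from the log2 difference and its F statistic. Folds against a group with 0 counts use 3 counts over the group, and against 1 to 3 counts an exact 95% interval is given.

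Members were found by symbol. Given in full were members called in at least 1 of 9 comparisons of 2 groups with at least 5 CPM in the highest group, which named 6 (HOXA7, HOXA9, HOXA10, HOXC8, HOXC9 and HOXD9). The other tested members and members named beyond the rule were chosen after their values were seen. Of each context list, up to 4 members with the highest group mean were within the rule; MEIS3, PKNOX2, EZH2, EZH1, SKAP2, EVX1, EVX2 and CDX1 were named after their values were seen. The members and lists were chosen with earlier results of these data known. Alternatives were DESeq2 1.42.0, limma-voom (limma 3.58.1), other scalings and filters, a stricter threshold, only the groups compared, a replicate block and each library left out. The steps were tested on simulated data.

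Some items are not reported here. Replicate numbers are not said to pair libraries, and the correlations of same-numbered libraries given below do not settle whether they do.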

Additional observations from a re-analysis of the deposited data

Results flagged for a closer look

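No tested HOX member had a DIK-WT difference that varied between labels by the edgeR interaction test, but genes of the context lists did. Values are differences of log2 differences with SE. For mouth minus nose, the DIK-WT difference was lower for the cofactor MEIS1 (-2.61 ± 0.54, edgeR adjusted p = 0.00497) and for SHOX2 (-5.16 ± 1.14, edgeR adjusted p = 0.00892). It was higher for PITX1 (4.70 ± 1.19, edgeR adjusted p = 0.0211) and DLX5 (4.67 ± 1.37, edgeR adjusted p = 0.0433). For mouth minus scrotum, it was lower for MEIS1 (-3.49 ± 0.52, edgeR adjusted p = 0.000260). It was higher for TBX15 (4.07 ± 1.04, edgeR adjusted p = 0.0139), DLX3 (4.62 ± 1.22, edgeR adjusted p = 0.0183) and DLX5 (5.25 ± 1.43, edgeR adjusted p = 0.0218). DLX5 and PITX1 had 0 counts in the WT mouth group, so their values depend on the prior count.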

How the results depend on the processing

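No log2 difference of a called HOX member changed sign under any alternative, with 792 values on the same side of the threshold and 73 that lost the call. HOXA10 kept each of its calls in every fit in which it passed the filter. With each library left out in turn, the number of called members ran from 2 to 9 for DIK minus WT at the mouth label, 0 to 1 at the nose label and 0 to 1 at the scrotum label. It ran from 1 to 4 for mouth minus nose and 1 to 5 for mouth minus scrotum in DIK (5 without WT scrotum replicate 2), and from 5 to 10 and 6 to 10 for the same pairs in WT. At an adjusted p under 0.01, 2, 0 and 0 members were called for DIK minus WT at mouth, nose and scrotum, 1 for each of the DIK pairs and 5 for mouth minus nose in WT. With at least 10 CPM in 3 libraries, where few members are left to test, the counts were 2, 0 and 0 for DIK minus WT, 1 for mouth minus nose in DIK and 2 for both WT pairs. limma-voom called 2 at the nose label, 6 for each DIK pair and 1 for the interaction of mouth minus nose. With no filter the counts were 0 at the nose label, 5 for mouth minus nose in DIK, 13 for mouth minus nose in WT and 14 for mouth minus scrotum in WT, of which 1, HOXC13, was lower in WT mouth and rested on WT scrotum replicate 2 for 18 of its 20 counts. Fitting only the groups compared gave 0 at the nose label, 0 at the scrotum label and 0 for each DIK pair, with fewer members passing the filter. Library size alone gave 5 for mouth minus scrotum in DIK and WT mouth sums of 8.55 CPM (paralogues 1 to 4), 34.9 CPM (paralogues 5 to 8) and 52.6 CPM (cluster A). Without both WT scrotum replicate 2 and WT nose replicate 1, a choice made after seeing the data, there were 5 for mouth minus nose in DIK. Where no construction is named, the cause was not tested.

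The replicate block gave 7 called members for DIK minus WT at the mouth label, without HOXA7, 0 at the nose label and 1 at the scrotum label, and changed no other count. Over 27 same-numbered pairs the correlation of deviations ran from -0.22 to 0.19, and 7 matched their own number best. With 3 libraries per group, this does not settle whether same-numbered libraries are paired. Depth limits the members with few reads. A floor of 3 counts was 0.483 to 5.76 CPM per library.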
